A study of Mus musculus with 13 samples.

Results

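The subject here is a group of 7 genes that mark B lymphocytes, followed through bulk RNA sequencing libraries of mouse liver endothelial cells (LECs). The genes are Cd79a, Cd79b, Ms4a1, Pax5, Blk, Fcer2a and Cd22, taken by symbol from a table of raw counts for 24421 gene symbols. All 7 were in the table, and all 7 were abundant enough to be tested. The libraries came from wild type mice that were either conventionally raised, with a normal microbiota (CONV-R, 7 libraries, numbered 1 to 7), or germ-free, raised without live microbes (GF, 6 libraries, numbered 8 to 13). The sources used here give no age, sex or isolation method, and do not say whether a library is 1 animal. A p-value thus sets the group difference against the variation between these libraries, which may not be that between animals. The comparison was made in all 13 libraries and again in the 12 libraries without CONV-R 1, in which the B cell genes stood far above every other library.

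B cells recognise antigen through a surface immunoglobulin that cannot signal by itself. The proteins CD79A and CD79B pair with it and carry the signal into the cell, where kinases of the Src family, BLK among them, start the cascade. PAX5 is the transcription factor that holds a cell to the B lineage, and it acts together with EBF1 and the E-box factor E2A on genes such as Cd79a. CD20 (encoded by Ms4a1), CD22 and CD23 (encoded by Fcer2a) are surface proteins of mature B cells. CD22 binds sialic acid and dampens receptor signals, and CD23 is the low-affinity receptor for IgE, typical of follicular rather than marginal zone B cells. B cells circulate through the liver sinusoids, whose lining is made of endothelial cells. In a bulk library, fewer B cells and less of this RNA per cell cannot be told apart.

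In the mouse build GRCm38 with GENCODE M21 annotation, all 7 are protein-coding genes, and the deposited counts cover whole genes, exons as the authors' annotation defined them. Cd79a is at chr7:24897381-24902197 on the plus strand, and the other 6 are on the minus strand. Cd79b is at chr11:106311341-106314762, Ms4a1 at chr19:11249675-11266241, Pax5 at chr4:44524757-44710487, Blk at chr14:63372836-63417037, Fcer2a at chr8:3681737-3694175 and Cd22 at chr7:30865402-30880342. An annotated antisense gene overlaps 3 of them (4930526L06Rik over Ms4a1, Gm12462 over Pax5 and Gm29439 over Cd22). The sources used here do not say whether the counting used strand, so reads of these pairs cannot be told apart.

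As a description only, the 250 bases before the transcription start are shown for the 4 genes matched in a RefSeq promoter table (GRCm38.p6). They are read 5′ to 3′ on the strand of the gene, and a link to the levels was not tested. Capitals mark matches, on either strand, to letters bound by B lineage factors or to a TATA box: the octamer ATGCAAAT, the EBF1 core CCCNNGGG, the E-box CANNTG, the PU.1 core GAGGAA and TATAAA. The windows are chr7:24897247-24897496 (plus strand) for Cd79a, chr7:30879029-30879278 (minus) for Cd22, chr4:44710695-44710944 (minus) for Pax5 and chr8:3694175-3694424 (minus) for the most upstream of the RefSeq starts of Fcer2a, where RefSeq starts can differ from the GENCODE ends given above.
Cd79a: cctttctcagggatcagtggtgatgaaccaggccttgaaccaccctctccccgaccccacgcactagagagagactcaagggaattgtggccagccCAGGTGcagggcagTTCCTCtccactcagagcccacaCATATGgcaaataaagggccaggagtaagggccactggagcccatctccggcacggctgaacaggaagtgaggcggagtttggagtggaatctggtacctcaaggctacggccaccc
Cd22: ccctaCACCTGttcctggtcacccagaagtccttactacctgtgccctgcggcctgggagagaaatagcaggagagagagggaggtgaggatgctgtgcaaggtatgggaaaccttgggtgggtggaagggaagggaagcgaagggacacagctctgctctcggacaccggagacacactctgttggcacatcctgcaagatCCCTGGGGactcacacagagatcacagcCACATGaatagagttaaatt
Pax5: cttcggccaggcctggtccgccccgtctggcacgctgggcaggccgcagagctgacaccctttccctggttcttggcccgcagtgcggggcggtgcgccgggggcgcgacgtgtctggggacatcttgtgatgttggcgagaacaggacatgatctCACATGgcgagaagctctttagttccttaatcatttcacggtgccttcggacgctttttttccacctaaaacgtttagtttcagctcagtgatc
Fcer2a: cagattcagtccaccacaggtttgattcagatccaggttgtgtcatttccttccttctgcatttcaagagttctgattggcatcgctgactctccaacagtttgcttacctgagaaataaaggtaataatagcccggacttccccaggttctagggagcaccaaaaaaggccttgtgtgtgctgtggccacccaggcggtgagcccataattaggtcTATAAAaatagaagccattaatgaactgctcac
The Cd79a window held E-boxes that begin 154 and 117 bases before the start and, between them, a PU.1 core on the opposite strand at 140. Cd22 held an EBF1 core at 48 bases before the start and E-boxes at 245 and 20, while Pax5 held an E-box at 94 and Fcer2a a TATA box at 33. Among 32851 promoter windows of the same length, 66.2% held an E-box, 23.2% a PU.1 core, 12.4% a TATA box, 11.8% an EBF1 core and 1.60% the octamer, which none of the 4 windows printed holds. A match is a string of letters and not a bound site.

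Depth was 7590320 to 32869515 counts per CONV-R library, and the GF libraries held 23407168 to 35478115. A code in the library names has the number 10 in CONV-R 1 to 4, 9 in CONV-R 5 to 7 and 6 in GF 8 to 13. The labels do not explain it, and it cannot be told apart from the group because the groups share no number. Endothelial genes were abundant in all libraries: 12 endothelial markers summed to 21504 to 27673 CPM of the library total (counts scaled to a common library size) in CONV-R 2 to 7 and to 27510 to 29700 in GF, with the lowest sum, 16418, in CONV-R 1. None of the 12 was at 0 in any group, and Stab2, a scavenger receptor of the sinusoids, reached 2699 CPM in CONV-R 1, 4509 to 5587 in CONV-R 2 to 7 and 5414 to 6222 in GF. The 7 B cell genes together took 0.150% of all counts in CONV-R 1, 0.00574% to 0.00778% in CONV-R 2 to 7 and 0.00221% to 0.00395% in GF, so they were a trace in 12 libraries.

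All 7 B cell genes were lower in GF than in CONV-R, with and without CONV-R 1. In the 12 libraries without it, they fell 1.96-fold to 3.54-fold, and all 7 passed the threshold (adjusted p under 0.05 by edgeR's quasi-likelihood test, Benjamini-Hochberg over all genes tested), where 12.6% of 13965 tested genes were lower in GF. In all 13 libraries the fitted log2 fold changes were steeper, from -3.78 to -2.66, with standard errors of 0.75 to 0.99, and again all 7 passed, against 12.7% of 13915 genes. Every GF library lay below every CONV-R library for 6 of the 7, all except Pax5, and this held for 4.32% of tested genes. Their summed level was 1389 CPM of the library scaled by the trimmed mean of M values (TMM, the scale of all single-gene CPM here) in CONV-R 1. It was 56.8 to 76.3 in CONV-R 2 to 7 and 23.6 to 40.5 in GF, the highest of these in GF 8.

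**Figure D1:**
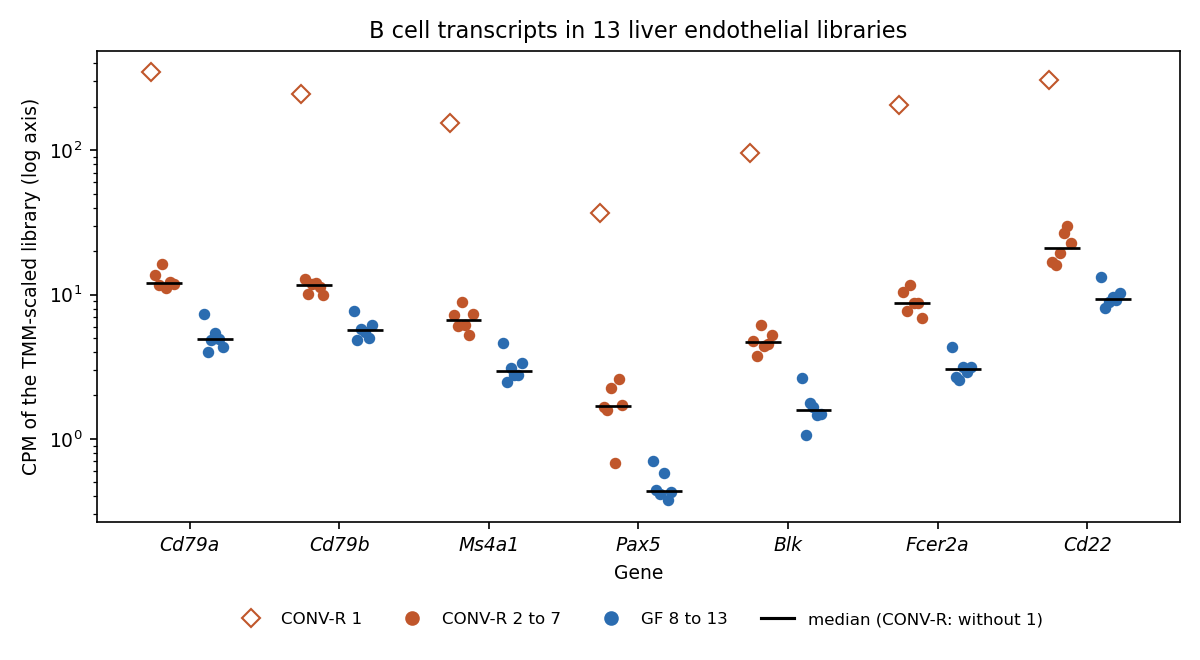
CPM of the TMM-scaled library, on a log axis, for the 7 B cell genes in each of 13 libraries; diamonds are CONV-R 1, filled points the other libraries and bars the medians, CONV-R without library 1. CONV-R 1 lies 14.4-fold (Cd22) to 28.9-fold (Cd79a) above the median of CONV-R 2 to 7, and the GF points lie below the CONV-R points for every gene but Pax5, where CONV-R 5 reaches into the GF range.

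Cd79a and Cd79b, the signalling chains of the B cell receptor, were the most abundant of the 7 per length of transcript. Cd79a was at 347 CPM in CONV-R 1 and at 13.6, 11.6, 16.2, 11.1, 12.1 and 11.9 in CONV-R 2 to 7, against 7.36, 3.97, 4.87, 5.38, 4.94 and 4.32 in GF 8 to 13. The groups did not overlap, CONV-R 2 to 7 were close to each other, and GF 8 was the highest of its group. Without CONV-R 1, Cd79a fell 2.51-fold, from 12.8 ± 1.88 to 5.14 ± 1.19 CPM (mean ± SD, n = 6 and 6, log2 fold change -1.33 ± 0.15 SE, edgeR adjusted p = 9.03e-05). In 13 libraries the log2 fold change was -3.56 ± 0.99 SE (adjusted p = 0.0209).

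Cd79b was at 244 CPM in CONV-R 1, at 9.88 to 12.8 (median 11.6) in CONV-R 2 to 7 and at 4.86 to 7.67 (median 5.67) in GF. Here too the groups were apart. It fell 1.96-fold in the 12 libraries, the smallest change of the 7 there though not in all 13 libraries (log2 fold change -0.97 ± 0.12 SE, edgeR adjusted p = 1.85e-04) and by 2.93 ± 0.88 SE on the log2 scale in 13 (adjusted p = 0.0286). The call in 13 libraries was lost when any of GF 9 to 13 was left out, with adjusted p from 0.0555 to 0.0627, while no left-out library ended the call in 12. For each Cd79a count there were 0.726 to 1.08 Cd79b counts in CONV-R 2 to 7 and 1.01 to 1.43 in GF, ranges that overlap.

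Ms4a1 and Fcer2a, surface proteins of mature B cells, were high and low in the same groups of libraries. Ms4a1 was at 155 CPM in CONV-R 1, at 5.22 to 8.84 (median 6.69) in CONV-R 2 to 7 and at 2.47 to 4.65 (median 2.93) in GF. Without CONV-R 1 it fell 2.16-fold (log2 fold change -1.11 ± 0.17 SE, edgeR adjusted p = 8.48e-04), and with it by 3.13 ± 0.91 SE on the log2 scale (adjusted p = 0.0252). As for Cd79b, leaving out any of GF 9 to 13 ended the call in 13 libraries, at adjusted p of 0.0507 to 0.0574.

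Fcer2a was at 206 CPM in CONV-R 1, at 6.84 to 11.7 (median 8.71) in CONV-R 2 to 7 and at 2.55 to 4.34 (median 3.03) in GF. The lowest CONV-R library, CONV-R 7, was above the highest GF library, GF 8, and the other 5 GF libraries lay between 2.55 and 3.16. The gene fell 2.91-fold in the 12 libraries, from 9.02 ± 1.77 to 3.13 ± 0.638 CPM (mean ± SD, n = 6 and 6, log2 fold change -1.54 ± 0.16 SE, edgeR adjusted p = 5.90e-05), the smallest adjusted p of the 7. In 13 libraries the log2 fold change was -3.57 ± 0.93 SE (adjusted p = 0.0161).

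Pax5, the lineage factor, was the least abundant and had the largest fold change. It was at 36.9 CPM in CONV-R 1, at 1.67, 1.59, 2.27, 0.686, 2.61 and 1.71 in CONV-R 2 to 7, and at 0.708, 0.441, 0.416, 0.583, 0.375 and 0.427 in GF 8 to 13. CONV-R 5 lay among the GF libraries, just under GF 8, so the groups overlapped by this pair. The depth behind these values was small: CONV-R 5 had 11 counts (exact Poisson 95% interval 5.49 to 19.7), GF 8 had 23 (14.6 to 34.5) and GF 13 had 10 (4.80 to 18.4), intervals that cover counting error only. Pax5 fell 3.54-fold in the 12 libraries (log2 fold change -1.82 ± 0.29 SE, edgeR adjusted p = 9.83e-04) and by 3.78 ± 0.95 SE on the log2 scale in 13 (adjusted p = 0.0135).

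Blk, the Src family kinase of B cells, was at 95.3 CPM in CONV-R 1, at 3.75 to 6.18 (median 4.66) in CONV-R 2 to 7 and at 1.06 to 2.65 (median 1.58) in GF. The groups did not overlap, and GF 9 was the lowest library and GF 8 the highest of its group. It fell 2.88-fold in the 12 libraries, from 4.83 ± 0.828 to 1.69 ± 0.531 CPM (mean ± SD, n = 6 and 6, log2 fold change -1.52 ± 0.21 SE, edgeR adjusted p = 3.33e-04). In 13 libraries its log2 fold change was -3.39 ± 0.88 SE (adjusted p = 0.0153).

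Cd22, the inhibitory lectin, had the highest CPM of the 7 in every library except CONV-R 1, where Cd79a was higher. It was at 304 CPM in CONV-R 1, at 16.9, 15.9 and 19.4 in CONV-R 2 to 4, at 26.5, 29.8 and 22.7 in CONV-R 5 to 7, and at 13.2, 8.08, 8.82, 9.60, 9.12 and 10.3 in GF 8 to 13. CONV-R 5 to 7 were all above CONV-R 2 to 4, a split that no other member showed. It fell 2.22-fold without CONV-R 1 (log2 fold change -1.15 ± 0.16 SE, edgeR adjusted p = 4.57e-04) and by 2.66 ± 0.75 SE on the log2 scale with it (adjusted p = 0.0219). The call in 13 libraries was lost without GF 9 (adjusted p = 0.0512).

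Levels can be set against each other only per length of transcript. Over the union of annotated exons, Cd79a and Cd79b had medians of 8.25 and 8.08 CPM per kb in CONV-R 2 to 7, and 3.37 and 3.96 in GF. Cd22 followed at 4.31 and 1.92, Fcer2a at 3.69 and 1.28, Ms4a1 at 2.18 and 0.954 and Blk at 2.0 and 0.678. Pax5 was the lowest in both groups, at 0.211 and 0.0543 CPM per kb. The order of the 7 in CONV-R 2 to 7 was that of CONV-R 1 with Fcer2a and Cd22 exchanged (87.2 and 62.2 CPM per kb in CONV-R 1), and in GF Cd79b stood above Cd79a. Within libraries, Cd79b was above Cd79a per kb in 6 of 6 GF libraries and in 1 of CONV-R 2 to 7, CONV-R 5, and the ranges of the 2 genes over libraries overlapped in both groups.

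Each code number of CONV-R was also set against GF by itself. CONV-R 2 to 4 against GF gave log2 fold changes from -1.90 (Pax5) to -0.82 (Cd22), and all 7 passed the threshold (edgeR adjusted p from 1.48e-04 to 0.00201), where 9.55% of 14284 tested genes were lower. CONV-R 5 to 7 against GF gave values from -1.70 (Pax5) to -0.94 (Cd79b), and all 7 passed (adjusted p from 7.65e-05 to 0.00738), where 17.9% of 14122 genes were lower. For 6 genes the values lay nearer to each other than for Cd22, from -1.53 and -1.50 for Blk to -1.67 and -1.37 for Fcer2a. Cd79a was at -1.42 and -1.19 and Cd79b at -0.99 and -0.94. Cd22 stood at -0.82 and -1.43. These comparisons share the GF libraries, and the difference between them was not tested.

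**Figure D2:**
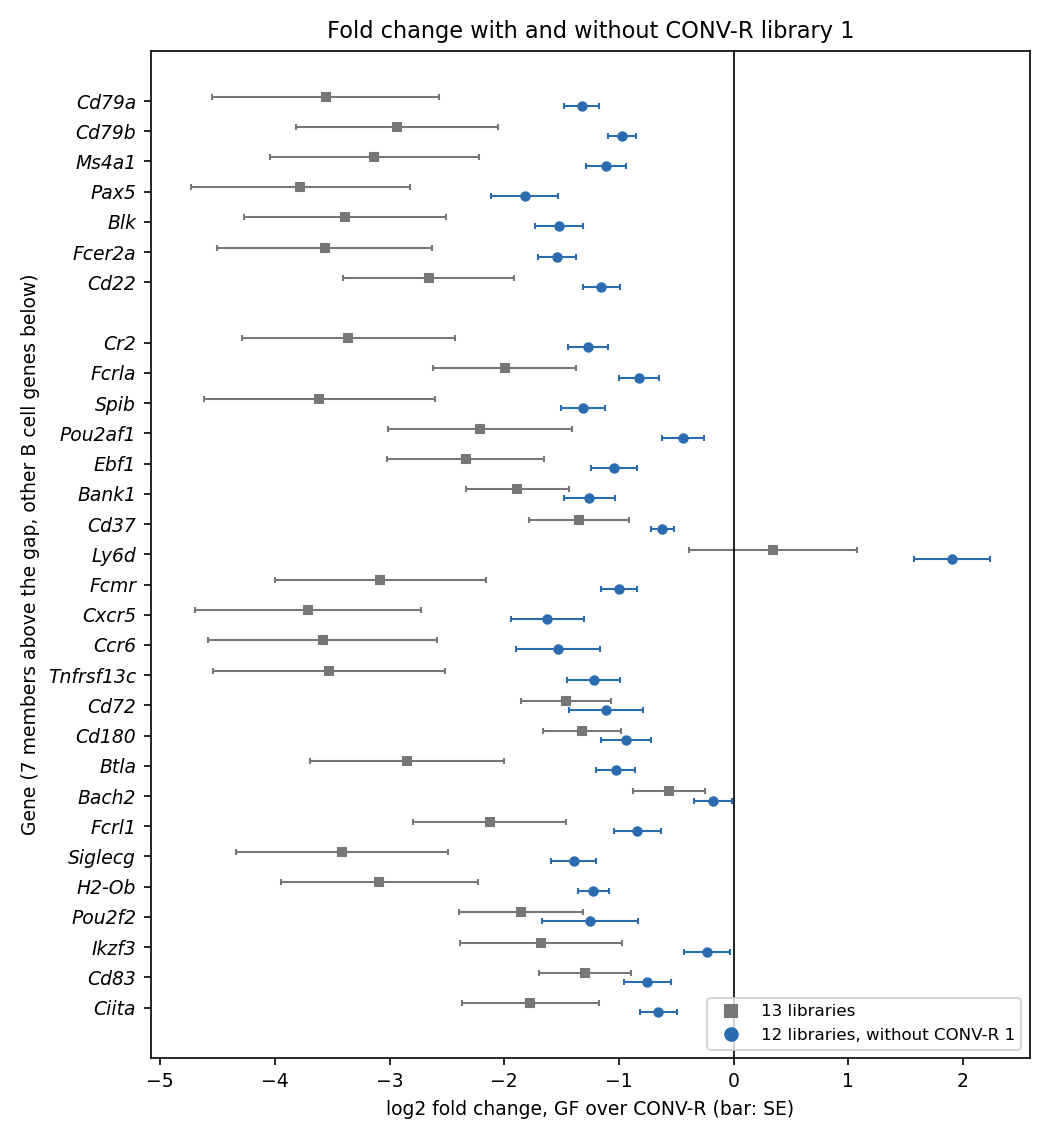
Log2 fold change of GF over CONV-R with its standard error for the 7 B cell genes and 23 of the 24 other B cell genes tested, in 13 libraries (squares) and in 12 libraries without CONV-R 1 (circles). All 7 genes lie left of 0 in both, with bars of 0.75 to 0.99 in 13 libraries and of 0.12 to 0.29 in 12, and Ly6d is the gene to the right of 0.

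The make-up of the B cell signal differed between libraries. Of the counts on the 7 genes, Cd22 took 21.9% in CONV-R 1, 25.1% to 28.0% in CONV-R 2 to 4, 34.6% to 40.0% in CONV-R 5 to 7 and 32.2% to 35.1% in GF. Cd79a took 25% in CONV-R 1, 20.2% to 21.2% in CONV-R 2 to 4, 16% to 18.1% in CONV-R 5 to 7 and 14.8% to 18.8% in GF. For each Cd79a count there were thus 0.876 Cd22 counts in CONV-R 1, 1.20 to 1.37 in CONV-R 2 to 4, 1.91 to 2.45 in CONV-R 5 to 7 and 1.78 to 2.38 in GF. By this ratio CONV-R 5 to 7 overlapped GF and CONV-R 1 to 4 lay below both. CONV-R 5 to 7 also had more Kupffer cell marker counts, 3839 to 6646 CPM of the library total for 10 genes against 2080 to 2652 in CONV-R 2 to 4. They likewise had more neutrophil marker counts, 753 to 2342 for 9 genes against 270 to 389. Their part in the split was not tested.

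**Figure D3:**
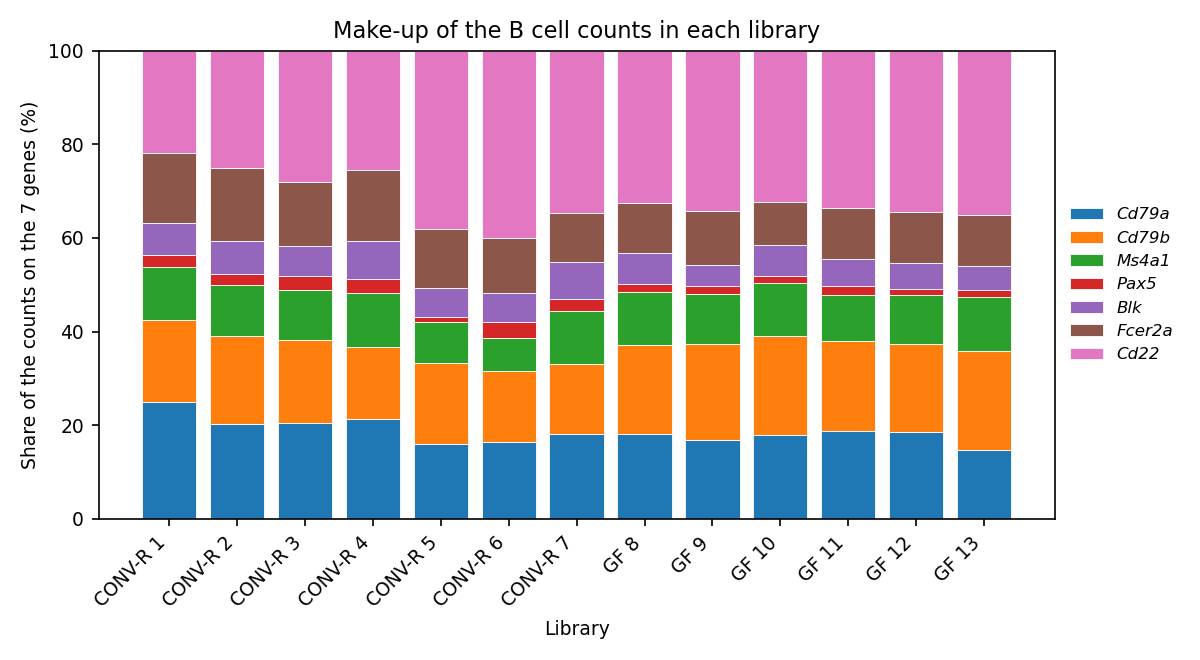
Share of the counts on the 7 B cell genes taken by each gene, in percent, for each of 13 libraries. The Cd22 share at the top is 21.9% in CONV-R 1, up to 28.0% in CONV-R 2 to 4 and at least 32.2% in CONV-R 5 to 7 and in GF.

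Ptprc encodes CD45, carried by all nucleated blood cells, and offers a scale for leukocyte RNA as a whole. It was at 626 CPM in CONV-R 1, at 110 to 172 in CONV-R 2 to 5, at 291 and 363 in CONV-R 6 and 7 and at 84.9 to 137 in GF, and without CONV-R 1 it fell 1.97-fold (log2 fold change -0.98 ± 0.29 SE, edgeR adjusted p = 0.0307). Per Ptprc count there were 2.22 counts on the 7 B cell genes in CONV-R 1. In CONV-R 2 to 4 there were 0.548, 0.438 and 0.694, in CONV-R 5 to 7 there were 0.405, 0.256 and 0.181, and in GF 0.267 to 0.305. CONV-R 2 to 5 lay above every GF library by this measure and CONV-R 6 and 7 below every GF library.

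Most of the other listed B cell genes were also lower in GF. Of 25 listed, 24 were tested. In the 12 libraries 20 of them were lower in GF, 1 was higher and 3 passed in neither direction. Over all genes tested there, 12.6% were lower and 10.1% higher. In 13 libraries 20 were lower and 0 higher, against 12.7% lower and 11.4% higher over all tested genes. The median log2 fold change of the 24 was -1.04 in 12 libraries and -2.17 in 13, where over all tested genes it was -0.02 and -0.01. In the 12 libraries H2-Ob, a chain of the peptide-loading regulator H2-O, fell by 1.23 ± 0.13 SE on the log2 scale (edgeR adjusted p = 7.65e-05). Cr2, the complement receptor CD21, fell by 1.27 ± 0.17 SE (edgeR adjusted p = 3.36e-04), and Siglecg, another inhibitory lectin, by 1.39 ± 0.20 SE (edgeR adjusted p = 4.19e-04).

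Ly6d, a surface protein used to mark lymphoid progenitors that enter the B lineage, went the other way. It was at 124 CPM in CONV-R 1, at 4.36 to 17 in CONV-R 2 to 7 and at 26.0 to 44.4 in GF, so that every GF library was above CONV-R 2 to 7 and below CONV-R 1. It rose 3.74-fold without CONV-R 1 (log2 fold change 1.90 ± 0.33 SE, edgeR adjusted p = 0.00220), and stood at 0.34 ± 0.73 SE in 13 libraries (adjusted p = 0.765). The 3 genes that passed in neither direction without CONV-R 1 were Bach2 (log2 fold change -0.18), Ikzf3 (-0.23) and Pou2af1 (-0.44), chosen for naming after their values were seen. Of these, Ikzf3 was highest among GF libraries in GF 8, at 16.9 CPM against at most 8.43 in the other 5.

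Genes of the signalling cascade behind the B cell receptor are also used by other leukocytes and by endothelium. Of 20 tested, 9 were lower in GF in 12 libraries, 0 were higher and 11 passed in neither direction, with a median log2 fold change of -0.57. In 13 libraries 11 were lower and 0 higher. Over all tested genes 12.6% were lower in 12 libraries and 12.7% in 13. Without CONV-R 1 the adaptor Blnk fell by 0.62 ± 0.16 SE on the log2 scale (edgeR adjusted p = 0.0154) and the lipid kinase subunit Pik3cd by 0.97 ± 0.25 SE (adjusted p = 0.0157). The kinase Syk fell by 1.07 ± 0.29 SE (edgeR adjusted p = 0.0201) and the phosphatase Ptpn6, which CD22 recruits, by 0.89 ± 0.26 SE (adjusted p = 0.0301). The summed level of the 20 genes was 5163 to 5786 CPM of the library total in CONV-R 2 to 7 and 5133 to 5544 in GF, ranges that overlap. A large part of it was Fcgr2b, an inhibitory Fc receptor that liver endothelium makes in quantity, at 2376 to 3273 CPM in CONV-R 2 to 7 and 3272 to 3746 in GF.

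Of 21 listed immunoglobulin and plasma cell genes, 10 were in the table and 8 were tested. The immunoglobulin constant genes on the list, Ighm and Igkc among them, are not analysed here. In 12 libraries 2 of the 8 were lower and 0 higher, beside 12.6% of all tested genes lower. Irf4, a transcription factor of activated B and plasma cells, fell by 0.84 ± 0.18 SE on the log2 scale (edgeR adjusted p = 0.00498) and Mzb1, a chaperone of immunoglobulin assembly, by 0.99 ± 0.23 SE (adjusted p = 0.00802). In 13 libraries 3 were lower and 0 higher (12.7% of all tested genes were lower). Jchain, the chain that joins IgM and IgA into polymers, was at 11.7 CPM in CONV-R 1, at 0.71 to 1.81 in CONV-R 2 to 7 and at 0.924 to 1.37 in GF. Its log2 fold change was -0.14 ± 0.23 SE without CONV-R 1 (edgeR adjusted p = 0.697) and -1.24 ± 0.60 SE with it (adjusted p = 0.140).

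Markers of B cell subsets and stages were read in the same way. Of 9 tested marginal zone and B-1 genes, 3 were lower and 0 higher in 12 libraries, and 4 and 0 in 13, where 12.6% and 12.7% of all tested genes were lower. The 3 were Cr2, also on the list of other B cell genes, Il5ra and Cd1d1, a lipid-presenting molecule that fell by 0.65 ± 0.20 SE on the log2 scale (edgeR adjusted p = 0.0329). Il5ra is the interleukin 5 receptor chain found on B-1 cells and eosinophils. It had 245 counts in CONV-R 1, 6 to 25 in CONV-R 2 to 7 and 0 to 9 in GF. Its log2 fold change without CONV-R 1 was -2.08 ± 0.42 SE (edgeR adjusted p = 0.00438). The filter for testing asks for a minimum count, scaled to depth, which no GF library reached for Il5ra. The gene was thus tested through its CONV-R libraries alone, and the size of its fall rests on few counts. Fcer2a, which follicular B cells carry, and Cr2, highest on marginal zone B cells, both fell, by 1.54 and 1.27 on the log2 scale.

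Of 7 listed genes of B cell precursors, 6 were too low to be tested. The other was Il7r, the interleukin 7 receptor chain that T cells also carry, at 1.63 to 3.55 CPM in CONV-R 2 to 7 and 1.60 to 3.66 in GF, with a log2 fold change of -0.10 ± 0.24 SE in 12 libraries (edgeR adjusted p = 0.793). Dntt, which adds bases at immunoglobulin joints, had 148 counts in CONV-R 1, 0 to 19 in CONV-R 2 to 7 and 0 to 5 in GF. Rag1, a subunit of the recombinase that joins receptor segments, had 20 counts in CONV-R 1, 0 to 1 in CONV-R 2 to 7 and 0 to 3 in GF. Vpreb2 was at 0 in all libraries, and Vpreb1 was not raised in CONV-R 1, with 5 counts against 0 to 15 in CONV-R 2 to 7 and 2 to 15 in GF. The 7 precursor genes summed to 64.2 CPM of the library total in CONV-R 1, 2.32 to 4.14 in CONV-R 2 to 7 and 1.99 to 3.96 in GF, and Il7r alone, at 50.5 CPM, made up most of the sum in CONV-R 1.

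Of 6 germinal centre and cycling genes tested, 0 passed by edgeR in either fit, with 0 at an unadjusted p under 0.05 in 12 libraries, 1 (higher in GF) in 13 and 0 by DESeq2. Mki67, a marker of cycling cells, stood at 11.2 to 45 CPM in CONV-R 2 to 7 and at 21.5 to 32.8 in GF. Signals that keep or draw B cells gave 0 of 6 tested in either fit by edgeR, 1 (lower in GF) at an unadjusted p under 0.05 in 12 libraries, 0 in 13 and 0 by DESeq2. Of these, Cxcl12, a chemokine that B cells follow, stood at 22.7 to 62.3 CPM in CONV-R 2 to 7 and 24.7 to 54.4 in GF (log2 fold change -0.34 ± 0.26 SE).

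Markers of other blood and liver cells moved in part with the B cell genes. T and NK cell markers gave 0 of 15 in 12 libraries by edgeR (2 lower and 0 higher at an unadjusted p under 0.05, 0 by DESeq2). In 13 libraries 1 of 15, Cd8b1, was lower. Over all tested genes 12.6% were lower in 12 libraries and 12.7% in 13. Cd3e, a chain of the T cell receptor complex, had a log2 fold change of 0.41 ± 0.40 SE in 12 libraries and -0.99 ± 0.75 SE in 13, neither past the threshold (edgeR adjusted p = 0.484 and 0.339). These 15 genes summed to 410 CPM of the library total in CONV-R 1, 88.8 to 125 in CONV-R 2 to 7, 261 in GF 8 and 81.0 to 112 in the other GF libraries. GF 8, highest of its group for the summed B cell genes, was thus also highest for the summed T and NK cell markers. Its Cd8a was at 14.1 CPM against at most 1.28 in the other 5. Cd4 did not stand out there, at 2.99 CPM against up to 3.21 in the other 5. Both were chosen after their values were seen. Gzma was at 98.8 CPM in GF 8 and at most 32.9 in the other 5. In CONV-R 1 Gzma was at 11.0 CPM, below the 17.7 to 34.4 of CONV-R 2 to 7.

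Neutrophil markers (7 of 7 tested) and hepatocyte markers (10 of 10) were all lower in GF in 12 libraries. Endothelial markers were higher for 7 of 12 and lower for 0. Over all genes tested in the 12 libraries, 12.6% were lower and 10.1% higher. Neutrophil markers summed to 152 CPM of the library total in CONV-R 1, 270 to 2342 in CONV-R 2 to 7 and 74.0 to 164 in GF. S100a9, a calcium-binding protein of neutrophils, fell 10.2-fold without CONV-R 1 (edgeR adjusted p = 0.00242) and in CONV-R 1 stood at 10.2 CPM, below the GF range of 24.7 to 56.4. Not all neutrophil markers were low there: Retnlg, chosen after its values were seen, was at 52.7 CPM in CONV-R 1, at 7.11 to 74.1 in CONV-R 2 to 7 and at 2.52 to 6.71 in GF. Hepatocyte markers summed to 7573 in CONV-R 1, 1316 to 6528 in CONV-R 2 to 7 and 706 to 1152 in GF. Kupffer cell markers gave 0 of 10 in both fits by edgeR (2 lower at an unadjusted p under 0.05 in 12 libraries and 7 in 13, and 0 and 3 by DESeq2) and summed to 5811, 2080 to 6646 and 1983 to 3257. The part of these cells in the B cell result was not tested.

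The summed dendritic cell markers were also highest in CONV-R 1, though not every gene was. Of 11 plasmacytoid dendritic cell markers tested, 5 were lower in GF in 12 libraries and 6 in 13, and of 8 conventional dendritic cell markers 4 were lower in both, where 12.6% and 12.7% of all tested genes were lower. Siglech, the defining lectin of plasmacytoid dendritic cells, was at 75.4 CPM in CONV-R 1, at 1.56 to 3.53 in CONV-R 2 to 7 and at 0.353 to 1.17 in GF, and fell 3.52-fold without CONV-R 1 (edgeR adjusted p = 0.00179). The plasmacytoid list, with genes such as Bst2 and Tcf4 that the endothelium also expresses, summed to 1052, 754 to 977 and 668 to 751 CPM of the library total in the same order. The conventional list summed to 370, 233 to 300 and 201 to 278. Of its genes, Zbtb46, a factor of dendritic cells and endothelium, was at 67.6 CPM in CONV-R 1, below every other library (99.98 to 119.2 in CONV-R 2 to 7 and 108 to 147 in GF), and Clec9a, at 77.5, lay within the range of the others. Both were chosen for naming after their values were seen. The part of these markers in the B cell result was not tested either. Haemoglobin genes do not help to judge blood RNA here, since Hba-a1, Hba-a2, Hbb-bs and Hbb-bt are listed at 0 in every library.

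**Figure D4:**
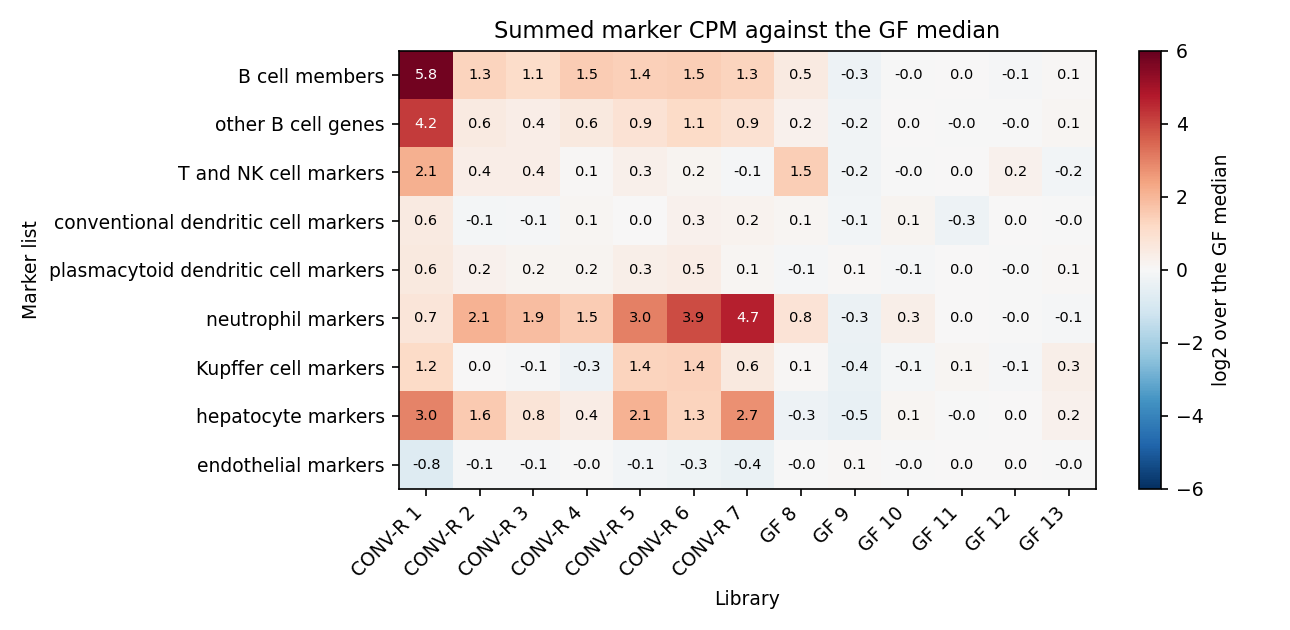
Log2 of the summed CPM of each marker list over its median in GF, one column per library. B cell genes and other B cell genes peak in CONV-R 1, neutrophil markers in CONV-R 7 and T and NK cell markers in CONV-R 1 and GF 8, and endothelial markers are lowest in CONV-R 1.

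Of the 10 genes whose pattern was most like the mean of the 7, 5 in 13 libraries and 4 in 12 were on the list of other B cell genes, and 7 were the same in both. Over 13 libraries, the highest Pearson correlations of log2 CPM with the mean of the 7, given as a description without a test, included H2-Ob (0.996), Btla (0.993), Cr2 (0.992), Cacna1i (0.991), H2-Oa (0.991), Siglecg (0.990), Gpr132 (0.990), Ccr7 (0.990) and Il21r (0.990). Over the 12 libraries they included H2-Ob (0.978), Cacna1i (0.976), Srpk3 (0.974), Btla (0.963), H2-Oa (0.963), Mtbp (0.963), Cr2 (0.961), Gpr132 (0.956) and Chst3 (0.955). Mtbp, in the second list only, was at 13.0 CPM in CONV-R 1 and at 13.1 in the lowest of CONV-R 2 to 7, so that library did not stand out for it. Among the 7 genes, the 21 pairwise correlations ran from 0.949 to 0.994 over 13 libraries (median 0.979). Over 12 they ran from 0.807 to 0.985 (median 0.914). All correlations here share libraries, depth and group, so the gap between the groups enters them, as does CONV-R 1 in the 13 libraries.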

How the data were processed

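Liver endothelial cell RNA was sequenced in 13 libraries. Per the labels' protocols, stranded poly(A) libraries were made and read on a NovaSeq6000. The submitters' processing notes name the build mm10, the aligner STAR 2.7.5a, the counter featureCounts 2.0.1, FastQC 0.11.9 and DESeq2 1.42.1, while annotation, strand setting and treatment of multiply mapped reads are not given. The authors deposited raw counts per gene symbol, with 0 duplicate symbols. Libraries of a group differed by more than sampling noise in every pair (chi-square over degrees of freedom at least 13.4, genes with at least 20 counts). Depth per library is given with the results, and the biological coefficient of variation was 0.264 in 13 libraries and 0.212 in 12.

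The test was edgeR 4.0.16 under R 4.3.3 on the counts (filterByExpr with minimum count 10 and minimum total 15, TMM, robust quasi-likelihood fit of group, Benjamini-Hochberg adjustment over all genes tested, threshold 0.05). A negative log2 fold change means lower in GF. Correlations used log2 CPM with a prior count of 2. Alternatives were DESeq2 1.42.0, limma-voom (limma 3.58.1), other scalings and filters, a threshold of 0.01, each code number alone and leaving out each library. Members, gene lists and tests were chosen with earlier results of these data known. By rule, named genes are the 7 members, a few fixed markers and the 10 genes most alike in pattern. Up to 4 of each list past the threshold in 12 libraries by smallest p (or the most abundant where none passed) are added. Other genes, such as Ly6d, Fcgr2b, Cd8b1, Dntt, Rag1, Vpreb1 and Vpreb2, were named outside this rule with the results known. Some of the others are marked where they appear as chosen after their values were seen. Of the listed symbols, 13 are not analysed here, and some named genes are not reported here. Motifs were searched in RefSeq promoters of GRCm38.p6, the build of mm10, and gene positions come from GENCODE M21.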

Additional observations from a re-analysis of the deposited data

Results flagged for a closer look

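In groups of 6 or 7 libraries, a library was singled out where its gap to the next value was too large a share of the group's range by Dixon's test. Of 46 such groups, 15 had one. Chance gives about 1 in 20, but the count cannot be held against that rate. CONV-R 1 had already been set apart, and the members were chosen with earlier results of these data known. The groups are also not independent, since the B cell genes share libraries. CONV-R 1 was the highest of its group for all 7 B cell genes: Cd79a at 347 CPM, Cd79b at 244, Ms4a1 at 155, Pax5 at 36.9, Blk at 95.3, Fcer2a at 206 and Cd22 at 304. It was also highest for their sum, at 1388.5 CPM, where the next CONV-R library had 76.3. By summed CPM of the library total, CONV-R 1 was highest for the other B cell genes, at 3134 with the next at 382, for the precursor B cell genes, at 64.2 with the next at 4.14, and for T and NK cell markers, at 410 with the next at 125.

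GF 8 was the highest of its group for Fcer2a, at 4.34 CPM with the next at 3.16, for the sum of the 7 genes, at 40.5 with the next at 29.2, and for T and NK cell markers, at 260.7 with the next at 112. Leaving GF 8 out did not end the call of any of the 7 genes in either set of libraries. GF 12 was the lowest of its group for the summed marginal zone and B-1 genes, at 163 CPM of the library total with the next at 203. A large part of this sum was Cd9, at 134 to 206 CPM in GF. The log2 fold change of Cd9 was 0.02 ± 0.18 SE in the 12 libraries.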

How the results depend on the processing

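Without CONV-R 1, the 7 genes were lower in GF past the threshold in all 139 combinations of gene and alternative, with log2 fold changes from -1.99 to -0.82. These combinations share libraries and are not independent. In the main fits 12.6% of all tested genes were lower in 12 libraries and 12.7% in 13, and shares under most alternatives are not reported here. A filter of at least 1 CPM in 6 libraries left 6 of the 7 genes, since it dropped Pax5. In all 13 libraries, 135 of 154 combinations kept the call and 19 lost it, and none changed direction (log2 fold changes from -4.41 to -0.92). At a threshold of 0.01, 0 of the 7 passed there, and with each library left out in turn 4 to 7 passed, 4 without GF 9. With no filter on low counts Cd79b missed the threshold (edgeR adjusted p = 0.0548). DESeq2 in 13 libraries replaced the count of CONV-R 1 as an outlier for all 7 genes, and for 233 genes one count or more, so its values (-1.26 for Cd79a) are close to those in 12 libraries.

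Changes of direction concerned genes that had not passed. In 13 libraries Cd3e stood at 0.41 by DESeq2, 0.22 by limma-voom, 0.41 without CONV-R 1 and 0.55 with CONV-R code number 9 only, with -1.49 as the lowest where 1 library (GF 8) was left out, and Ly6d at -0.18 with code number 10 only. In 12 libraries Jchain stood at 0.048 by limma-voom and 0.062 with CONV-R 2 to 4 only, and Cd3e at -0.074 without GF 8 and 0.54 without CONV-R 4. The summed B cell receptor signalling genes, at -0.05 (log2, GF minus CONV-R 2 to 7) by library total, moved to 0.033 in the TMM-scaled library. By Spearman's coefficient, 3 of the 10 most similar genes were shared with those by Pearson's, in 13 and in 12 libraries; the cause was not tested. No paired analysis was possible because the groups share no replicate numbers. Pax5 is limited by depth, with 10 to 23 counts in each GF library.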

Other observations

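Receptors that guide B cells to follicles and keep them alive were among the other listed B cell genes that fell. The genes in this paragraph were chosen after their values were seen. In the 12 libraries Cxcr5, the receptor for the follicular chemokine CXCL13, fell 3.08-fold (edgeR adjusted p = 0.00346), from 1.71 to 4.18 CPM in CONV-R 2 to 7 to 0.462 to 1.72 in GF. Ccr6, the receptor for CCL20, fell 2.89-fold (edgeR adjusted p = 0.0101). Its levels were low, at 0.406 to 1.22 CPM in CONV-R 2 to 7 and 0.177 to 0.523 in GF, ranges that overlap. Tnfrsf13c, which encodes the BAFF receptor, fell 2.33-fold (edgeR adjusted p = 0.00281). It too was low, at 0.933 to 1.82 CPM in CONV-R 2 to 7 and 0.416 to 0.807 in GF. The BAFF gene itself, Tnfsf13b, did not pass the threshold (log2 fold change -0.80 ± 0.32 SE, adjusted p = 0.0889), and it was lower in CONV-R 1, at 0.253 CPM, than in all other libraries.

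Of the transcription factors on the same list, some fell and some did not pass the threshold in the 12 libraries, and those named here were also chosen after their values were seen. Spib fell 2.48-fold (edgeR adjusted p = 5.21e-04) and Ebf1 2.06-fold (edgeR adjusted p = 0.00347). Every GF library was below every CONV-R library for both, which held for 4.32% of all tested genes in 13 libraries. Ebf1 was at 32.8 CPM in CONV-R 1, at 2.18 to 3.62 in CONV-R 2 to 7 and at 0.924 to 1.77 in GF. Pou2af1 (log2 fold change -0.44, adjusted p = 0.101), Ikzf3 (-0.23, adjusted p = 0.421) and Bach2 (-0.18, adjusted p = 0.460) did not pass.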
